A study of Mus musculus with 6 samples.

Results

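Macrophages grown from mouse bone marrow, taken as the average of the populations GM-BMM and M-BMM, were compared with the dendritic cells of the same experiment, GM-BMDC. The comparison asks which genes separate macrophages from dendritic cells whichever growth factor the macrophages were grown in. A gene was reported where the average of the 2 macrophage group means differed from the GM-BMDC mean at an adjusted p under 0.05, and where all 4 macrophage arrays lay on the same side of both GM-BMDC arrays. The adjusted p came from limma, a linear model with moderated variances, with Benjamini-Hochberg adjustment over all genes. Of 19938 genes tested, 2884 (14.5%) were reported. In macrophages 1556 of these were higher (7.8% of the genes tested) and 1328 were lower (6.66%).

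Bone marrow was cultured for 7 days. The donors were C57BL/6J mice of 6 to 10 weeks that the labels call male, and no allele or transgene is named. Both GM-BMDC and GM-BMM grew in GM-CSF at 25 ng/ml, which supports granulocytes, macrophages and dendritic cells. Sorting separated them into GM-BMDC, the MHCIIhighF4/80low cells, and GM-BMM, the MHCIIlowF4/80high cells, where MHCII is MHC class II and F4/80 a macrophage surface protein. M-BMM were sorted as CD11b+F4/80+ after growth in 20% L cell conditioned medium, which supplies the macrophage growth factor M-CSF unpurified. Each of the 3 populations had 2 arrays. There was no dendritic population without GM-CSF, so GM-BMM shared its growth factor with GM-BMDC and M-BMM did not. GM-BMM and M-BMM differed in both growth factor and sort gate, and these cannot be told apart. The labels call the arrays of a population biological replicates without naming mice or cultures, and p-values here reflect array-to-array spread alone, which may be technical in part. Values are log2 signals summarised by RMA, and the files mark no background, so group means under the 25th percentile of the data (5.04) are described as low.

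Macrophages and conventional dendritic cells are both myeloid phagocytes. Macrophages take up and degrade particles and dead cells, and their identity rests on receptors for antibody, complement and microbial patterns, on lysosomes and on factors such as PU.1 and MAF. Dendritic cells specialise in presenting antigen to T cells. As they mature they load class II molecules, raise costimulatory proteins and move to lymph nodes along CCR7 ligands. Marrow cultured in GM-CSF is known to yield a mixture of both kinds of cell.

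The arrays within a group were not interchangeable. Among the genes reported higher in macrophages, GM-BMDC replicate 2 lay above replicate 1 for 1151 of 1556 (74.0%, median difference 0.15 log2). Among those reported lower it lay above for 429 of 1328 (32.3%, median -0.16), so replicate 2 was the GM-BMDC array nearer to the macrophages. Leaving out GM-BMDC replicate 1, 768 genes were reported higher and 854 lower. Without M-BMM replicate 1 the counts were 811 and 851, and without M-BMM replicate 2 they were 958 and 849. Xist, the RNA of the inactive X chromosome, read 11.66 and 10.68 in GM-BMDC, 11.58 and 4.93 in GM-BMM and 4.53 and 4.80 in M-BMM. The Y-linked gene Eif2s3y read 3.94 and 8.80, 3.66 and 9.10, and 9.32 and 9.17 in the same order. Replicate 1 of both GM-CSF populations therefore went against the male label, and GM-BMDC replicate 2 carried both signals. Xist was thus high in both GM-BMDC arrays and low in GM-BMM replicate 2 and both M-BMM arrays. This signal ran in part with the main comparison and cannot be told apart from it. Leaving out both GM-CSF replicates numbered 1 does not remove this. GM-BMDC replicate 2, with Xist at 10.68, then stands against macrophage arrays that are all low in Xist.

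The 2 macrophage populations stood within a narrow range of each other for most reported genes. The test of GM-BMM minus M-BMM did not choose genes, but the no-overlap rule acted on how far these populations lay apart. With overlap allowed, 708 of 3182 genes differed between them and 2142 lay within 2-fold. For 2125 of the 2884 reported genes (73.7%), GM-BMM minus M-BMM did not pass the threshold and its 95% interval lay within 2-fold either way. Over all genes tested that share was 89.8%. Another 465 (16.1%) differed between the macrophage populations at an adjusted p under 0.05, against 6.19% of all genes, and 294 (10.2%) had an interval reaching past 2-fold without a call. Without M-BMM replicate 1 the first and second counts were 936 and 127, and without M-BMM replicate 2 they were 1049 and 126. The first was 1003 without GM-BMDC replicate 1. With both arrays numbered 1 in GM-CSF left out, 748 reported genes differed between the macrophage populations, and with both numbered 2 left out, 987 did.

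The direction of the difference between the macrophage populations was counted on each side. Of 265 genes higher in macrophages that also differed between GM-BMM and M-BMM, 90 were higher in GM-BMM and 175 in M-BMM. Over all genes tested 3.62% were higher in GM-BMM and 2.57% in M-BMM. Of 200 such genes lower in macrophages, 180 were higher in GM-BMM and 20 in M-BMM. Among genes lower by at least 2-fold, M-BMM lay further from GM-BMDC than GM-BMM did for 388 of 537, and among those higher by at least 2-fold it did so for 256 of 446. Both populations share the GM-BMDC arrays, so these last counts describe the values without a test.

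**Figure D1:**
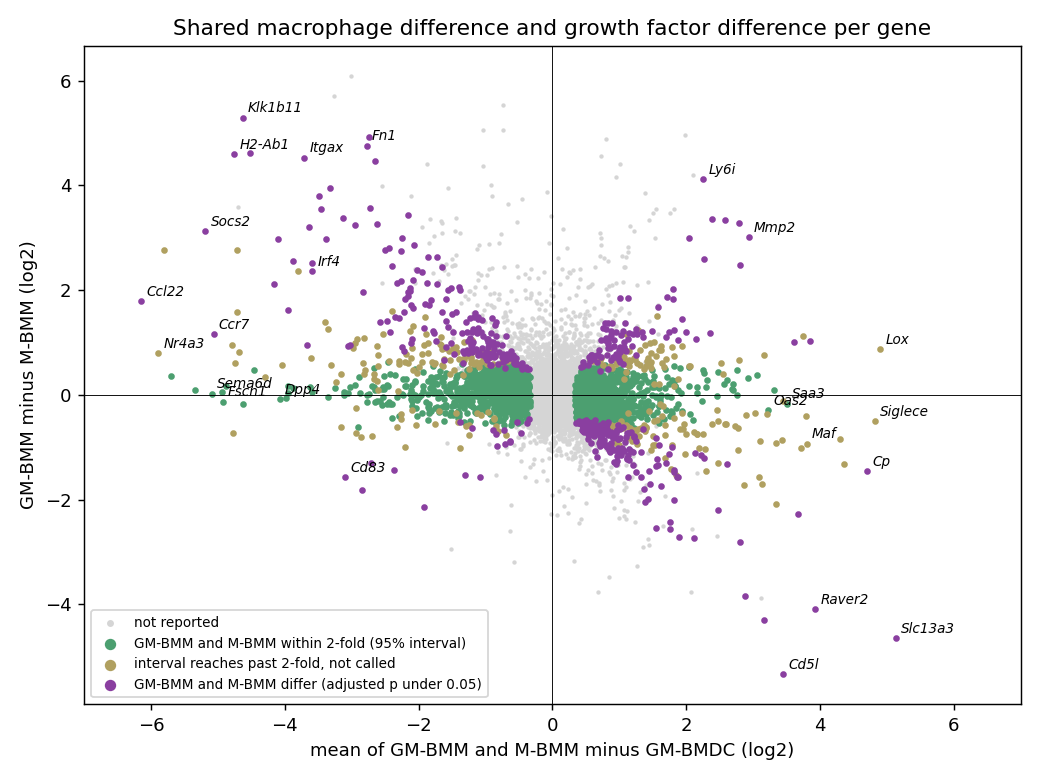
Each point is 1 of 19938 genes. The horizontal axis is the mean of GM-BMM and M-BMM minus GM-BMDC and the vertical axis GM-BMM minus M-BMM, both in log2. Grey genes were not reported, and the 2884 reported genes are coloured by whether the macrophage populations lay within 2-fold (2125), differed (465) or had a wide interval (294). Genes such as Fscn1 and Saa3 lie near the horizontal line, while Cd5l and Klk1b11 lie far from it.

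The genes of the sorting markers came first, as a check of the labels. They were used to sort the cells and are no finding. Adgre1, which encodes F4/80, read 9.39 and 10.90 in GM-BMDC, 12.32 and 12.61 in GM-BMM and 12.73 and 12.79 in M-BMM. It was 5.51-fold higher in macrophages (log2 difference 2.46, SE 0.36, limma adjusted p = 0.00397). Leaving out GM-BMDC replicate 1 or 2 moved that difference to 1.71 or 3.22. Itgam, which encodes CD11b, read 9.67 and 10.75, 11.81 and 11.77, and 11.87 and 11.84 in the 3 populations. The class II chain gene H2-Aa read 13.07 and 13.05 in GM-BMDC, 10.25 and 11.45 in GM-BMM and 6.37 and 6.11 in M-BMM. H2-Ab1 read 13.09 and 13.18, 10.08 and 11.27, and 5.81 and 6.35, and H2-Eb1 13.03 and 13.03, 9.78 and 11.04, and 7.18 and 7.70. The sorted class II low cells still gave class II signals above those of M-BMM, and all 3 chains differed between GM-BMM and M-BMM (log2 differences 4.61, 4.60 and 2.97, limma adjusted p = 0.000355, 0.000512 and 0.00415). H2-Ea, which is not transcribed in mice of this strain, was low in all 3 populations (4.03 to 4.70).

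The gene with the largest excess in macrophages was Slc13a3, a carrier of dicarboxylates. It read 5.90 and 5.92 in GM-BMDC, 7.10 and 10.35 in GM-BMM and 13.29 and 13.45 in M-BMM, 35.2-fold higher in the macrophage average (log2 difference 5.14, SE 0.74, limma adjusted p = 0.00376). GM-BMM replicates were far apart: without replicate 1 or 2 the difference was 5.95 or 4.32, and M-BMM exceeded GM-BMM by 4.65. GM-BMM alone did not pass against GM-BMDC for Slc13a3 (limma adjusted p = 0.0882). Lox encodes lysyl oxidase, which cross-links collagen. Its arrays read 5.79 and 6.05, 10.84 and 11.67, and 10.39 and 10.38, 29.9-fold higher in macrophages (log2 difference 4.90, SE 0.22, limma adjusted p = 3.25e-05). Siglece, an inhibitory sialic acid receptor, read 6.52 and 6.84, 10.94 and 11.56, and 11.69 and 11.82, 28.3-fold higher (log2 difference 4.82, SE 0.18, limma adjusted p = 1.97e-05). For both genes the lowest macrophage array lay more than 4 log2 units above the highest GM-BMDC array.

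Next in size were Cp and Fcgr4, and Maf was also among the 12 largest. Cp encodes ceruloplasmin, a copper ferroxidase, and read 5.80 and 5.94 in GM-BMDC, 9.61 and 10.09 in GM-BMM and 11.30 and 11.32 in M-BMM, 26.1-fold higher in macrophages (log2 difference 4.71, SE 0.14, limma adjusted p = 1.49e-05). Fcgr4, an activating receptor for IgG, read 6.02 and 7.31, 9.68 and 11.04, and 11.72 and 11.66, 20.5-fold higher (log2 difference 4.36, SE 0.43, limma adjusted p = 0.00077). Maf, a transcription factor of tissue macrophages, read 6.38 and 7.69, 10.09 and 10.65, and 11.28 and 11.32, 13.9-fold higher (log2 difference 3.80, SE 0.33, limma adjusted p = 0.000469). For the last 2 genes GM-BMDC replicate 2 was the higher dendritic array. The difference without GM-BMDC replicate 1 or 2 was 3.71 or 5.003 for Fcgr4 and 3.15 or 4.46 for Maf. Siglec1 (sialoadhesin) and Marco (a scavenger receptor for bacteria) were 13.5-fold and 13.2-fold higher. Klra2, a receptor of the Ly49 family, was 13.9-fold higher (log2 difference 3.79), and 3.002 or 4.586 log2 higher without GM-BMDC replicate 1 or 2. Adgb, which encodes androglobin, was 14.5-fold higher against a low GM-BMDC mean. Rapgef5 (a RAP1 exchange factor) was 12.7-fold higher and Raver2 (an RNA-binding protein) 15.2-fold higher (log2 difference 3.93). Without GM-BMM replicate 1 or 2 the Raver2 difference was 4.53 or 3.33. GM-BMM alone did not pass against GM-BMDC for Raver2 (limma adjusted p = 0.126).

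**Figure D2:**
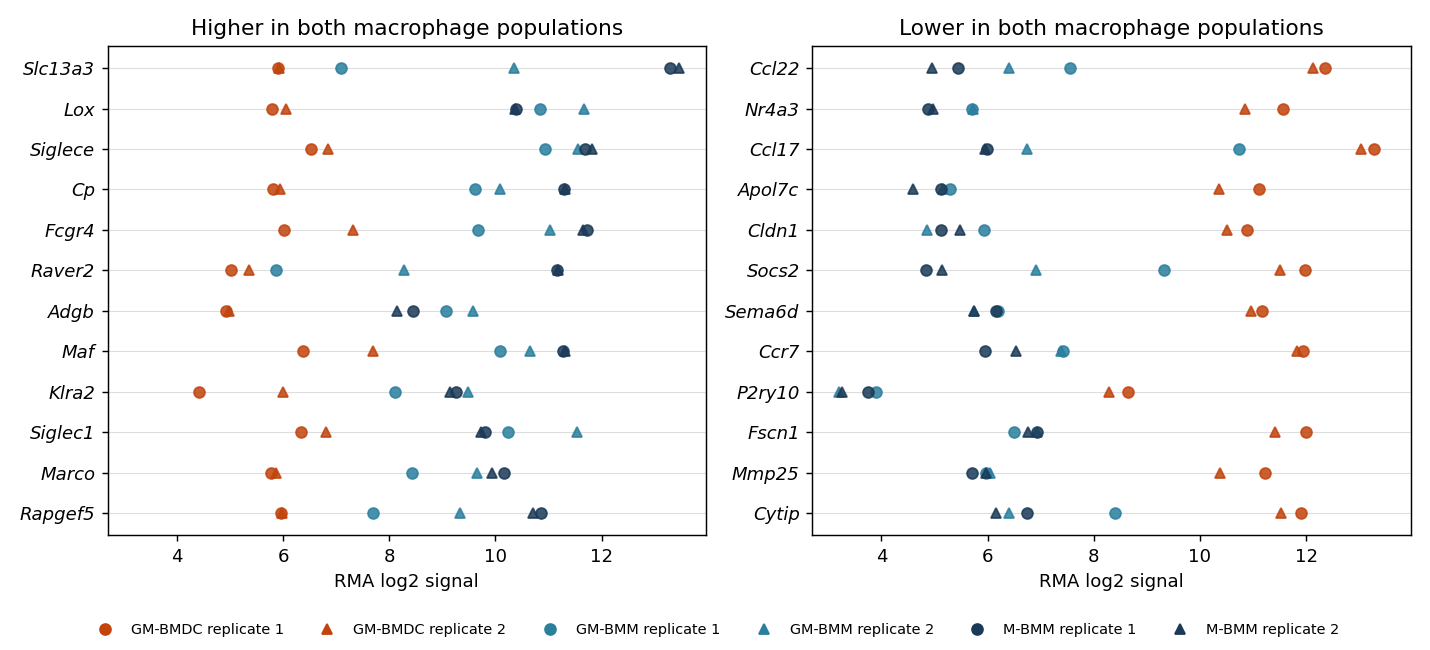
RMA log2 signal (horizontal axis) of the 12 genes with the largest reported difference in each direction, 1 point per array. Circles are replicate 1 and triangles replicate 2 of GM-BMDC (red-brown), GM-BMM (teal) and M-BMM (dark blue). All macrophage points lie on 1 side of the GM-BMDC points, and Slc13a3, Ccl17 and Socs2 show wide gaps between the GM-BMM arrays.

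Genes with the largest excess among those whose macrophage populations lay within 2-fold of each other included acute-phase, chemokine and antiviral genes. Saa3, an acute-phase serum amyloid, read 9.40 and 9.65 in GM-BMDC, 12.79 and 13.10 in GM-BMM and 13.12 and 13.10 in M-BMM. It was 11.4-fold higher in macrophages (log2 difference 3.51, SE 0.13, limma adjusted p = 1.94e-05), and GM-BMM minus M-BMM was -0.17 (95% interval -0.51 to 0.18). Ccl7, a chemokine for monocytes, read 7.14 and 7.48, 10.93 and 10.42, and 10.49 and 10.67, 9.99-fold higher (log2 difference 3.32, SE 0.17, limma adjusted p = 6.09e-05). Gpr84, a receptor for medium-chain fatty acids, was 8.34-fold higher. Pde7b, a cyclic AMP phosphodiesterase, was 6.81-fold higher. The other genes in this group named by the rule were Oas2, Irf7, Ifi206, Ddx60, Rsad2 and Rtp4, all linked to interferon, with folds from 6.45 to 9.38.

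All gene lists described from here on were chosen with earlier results of these data known, so their directions are no independent evidence. Of the type I interferon response list, 23 of 29 measured members were reported higher and 0 lower. Over all genes tested 7.8% were reported higher. By unadjusted limma p under 0.05, 27 were higher and 1 lower. The median log2 difference over the list was 1.32, against -0.005 over all genes. Against GM-BMDC the list's median was 1.46 in GM-BMM and 1.16 in M-BMM, and 1 of the 23 reported members, Oas3, differed between the macrophage populations. These genes are induced by type I interferon through the interferon-stimulated response element in their promoters. Ifit3, which restrains viral RNA translation with its partners, read 6.89 and 8.04 in GM-BMDC, 10.28 and 11.44 in GM-BMM and 11.01 and 10.94 in M-BMM. It was 11-fold higher in macrophages (log2 difference 3.45, SE 0.38, limma adjusted p = 0.00114). Oas2, which makes the second messenger of RNase L, read 6.84 and 7.53, 10.11 and 10.41, and 10.58 and 10.54. Irf7, the factor that amplifies interferon production, read 7.73 and 7.97, 10.50 and 11.38, and 10.69 and 10.54. Rsad2, which encodes viperin, read 8.30 and 8.19, 10.68 and 11.30, and 10.98 and 10.82. The macrophage arrays of these 4 genes all lay more than 2 log2 units above the GM-BMDC arrays. The 6 members not reported were Mx1, Irf9, Ifi35, Herc6, Mx2 and Stat2, and of these Mx1 read 9.74 and 9.16, 7.95 and 9.36, and 8.51 and 8.16, with the populations overlapping.

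The core of the response element, GAAA followed after any 2 bases by a second GAAA, on either strand, was searched in 300 bases around each annotated start, 250 before and 50 after, in RefSeq promoters of GRCm38.p6. It was present for 10 of the 17 reported interferon genes that had a promoter in the table (58.8%), for 1 of the 4 other members with a promoter, and for 3.89% of all tested genes with a promoter. Stretches from Ifit3 (chr19:34583328-34583427, plus strand) and Rsad2 (chr12:26456518-26456617, minus strand) are shown. They were chosen by size of difference among reported members with the motif wholly before the start. Capitals mark the motif, read here as its reverse complement, first met 156 and 120 bases before the start.
Ifit3: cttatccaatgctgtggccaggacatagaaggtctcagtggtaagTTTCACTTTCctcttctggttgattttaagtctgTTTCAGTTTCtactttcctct
Rsad2: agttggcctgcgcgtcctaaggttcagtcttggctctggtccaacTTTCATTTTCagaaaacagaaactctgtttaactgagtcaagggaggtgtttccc
A match describes these letters and does not show that a factor binds there.

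Of 53 measured lysosomal genes, 27 were reported higher (50.9%) and 2 lower (3.77%), against 7.8% and 6.66% of all genes. The lysosomal genes had a median log2 difference of 0.50. Their differences were smaller than those of the interferon genes and nearly equal in both macrophage populations: the list's median against GM-BMDC was 0.45 in GM-BMM and 0.56 in M-BMM, and 1 of the 29 reported members, Pla2g15, differed between them (its call against GM-BMDC was lost without GM-BMDC replicate 1, adjusted p = 0.0502). Acp2, a lysosomal acid phosphatase, read 9.43 and 9.60 in GM-BMDC, 10.78 and 11.37 in GM-BMM and 11.48 and 11.46 in M-BMM. It was 3.38-fold higher (log2 difference 1.76, SE 0.16, limma adjusted p = 0.000608). Acp5, the tartrate-resistant acid phosphatase, was 3.25-fold higher and Galns, a sulfatase of keratan sulfate breakdown, 2.94-fold higher. Ctsl, the protease cathepsin L, read 10.07 and 10.61, 12.06 and 11.81, and 11.82 and 11.75, 2.87-fold higher (log2 difference 1.52, SE 0.16, limma adjusted p = 0.000998). Gaa, the glucosidase that breaks down lysosomal glycogen, read 8.12 and 8.13, 9.28 and 9.16, and 9.60 and 9.60, 2.44-fold higher. The 2 members reported lower, named after their values were seen, were Gm2a (log2 difference -0.60) and Ids (-0.58). Without GM-BMDC replicate 1, 17 members were reported higher in place of 27.

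Many lysosomal genes carry the palindrome CACGTG within the element bound by TFEB and its relatives. In the same promoter windows it was present for 12 of the 22 reported lysosomal genes with a promoter (54.5%), for 4 of the 24 other members (16.7%) and for 9.5% of all tested genes. The stretches are from Ctsl (chr13:64370706-64370770, minus strand) and Gaa (chr11:119267778-119267873, plus strand), chosen by size of difference among reported members with CACGTG wholly before the start. It is in capitals and starts 236 and 140 bases before the start.
Ctsl: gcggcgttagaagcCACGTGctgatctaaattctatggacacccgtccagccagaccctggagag
Gaa: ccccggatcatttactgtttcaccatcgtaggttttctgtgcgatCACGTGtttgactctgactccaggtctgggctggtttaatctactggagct
TFEB itself, as Tfeb, differed by -0.13 log2 and its relatives Tfe3 and Mitf by 0.39 and 0.14, none of them reported.

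The macrophage core list was made of genes known to mark macrophages across tissues. Of 40 measured members, 23 (57.5%) were reported higher and 1, Acox3, lower (2.5%), against 7.8% and 6.66% of all genes. The list's median log2 difference was 0.77. Fer, a tyrosine kinase, read 5.17 and 5.60 in GM-BMDC, 7.32 and 7.34 in GM-BMM and 8.67 and 8.63 in M-BMM, 6.09-fold higher in macrophages (log2 difference 2.61, SE 0.13, limma adjusted p = 6.09e-05). Tlr7, the endosomal sensor of single-stranded RNA, read 7.44 and 8.72, 10.23 and 10.40, and 10.26 and 10.07, 4.46-fold higher (log2 difference 2.16). Abcc3, an efflux pump, was 3.56-fold higher. Selenop, which carries selenium, read 9.25 and 10.63, 11.04 and 10.74, and 11.99 and 11.90, 2.79-fold higher (log2 difference 1.48, SE 0.33, limma adjusted p = 0.0227). The 2 GM-BMDC arrays of Tlr7 and Selenop lay more than 1 log2 unit apart. The Tlr7 difference without GM-BMDC replicate 1 or 2 was 1.52 or 2.80, and the Selenop difference 0.79 or 2.17. Selenop lost its call without either M-BMM replicate (adjusted p = 0.0948 and 0.0807).

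Among defining macrophage genes, named after their values were seen, Cd68 was 1.89-fold, Mertk 1.76-fold and Fcgr1 2.76-fold higher. Mertk lost its call without GM-BMDC replicate 1 (adjusted p = 0.223), GM-BMM replicate 1 (0.0511), M-BMM replicate 1 (0.122) or M-BMM replicate 2 (0.0775), Fcgr1 without GM-BMDC replicate 1 (0.0667) and Cd68 without M-BMM replicate 1 (0.051). Csf1r, the receptor for M-CSF, read 10.53 and 11.51 in GM-BMDC, 11.62 and 11.97 in GM-BMM and 11.69 and 11.57 in M-BMM, and its difference of 0.70 did not pass (adjusted p = 0.116). GM-BMDC replicate 2 lay close to the macrophage arrays of this gene and replicate 1 about 1 log2 unit below. The macrophage core count was 15 without GM-BMDC replicate 1, 14 without M-BMM replicate 1 and 15 without M-BMM replicate 2. The PU.1 site GAGGAAGT, on either strand, was present in the promoter window of 1 of 20 reported core genes (5.0%), 1 of 14 others (7.14%) and 3.24% of all tested genes. The reported gene was Selenop (chr15:3270541-3270638, plus strand), shown with the site in capitals, read as its reverse complement and starting 181 bases before the start.
Selenop: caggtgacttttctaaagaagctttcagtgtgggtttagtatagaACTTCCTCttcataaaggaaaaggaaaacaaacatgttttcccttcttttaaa

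Transcription factors of macrophages were reported higher for 9 of 19 (47.4%) and lower for 1 (5.26%, near the 6.66% of all genes). Their median log2 difference was 0.39, and 7.8% of all genes were reported higher. The lower count was 3 without GM-BMM replicate 1 and 2 without GM-BMM replicate 2. After Maf, already described, the largest difference belonged to Bhlhe40, and it ran the other way. Bhlhe40, a basic helix-loop-helix repressor, read 10.55 and 10.25 in GM-BMDC, 9.29 and 8.87 in GM-BMM and 6.02 and 5.63 in M-BMM, 7.7-fold lower in macrophages (log2 difference -2.94, SE 0.17, limma adjusted p = 0.000101). Its paralogue Bhlhe41 read 6.45 and 6.96, 9.29 and 9.45, and 7.997 and 7.845, 3.84-fold higher. Spic, the factor of red pulp macrophages, read 6.45 and 6.37, 7.72 and 7.90, and 10.68 and 10.54, 6.96-fold higher (log2 difference 2.80, SE 0.10, limma adjusted p = 1.97e-05). Both Bhlhe genes and Spic also differed between GM-BMM and M-BMM, by 3.25, 1.45 and -2.80 log2. Nr1h3, the oxysterol receptor LXR alpha, was 3.04-fold higher (log2 difference 1.60, SE 0.36, limma adjusted p = 0.0224), a call lost without either GM-BMDC replicate (adjusted p = 0.113 without replicate 1 and 0.102 without replicate 2) and without either M-BMM replicate (0.0924 and 0.0822). Spi1, which encodes PU.1, differed by 0.23 and was not reported.

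Receptors for antibody, particles and dead cells moved in both directions, with 11 of 33 reported higher (33.3%) and 4 lower (12.1%). The shares of all genes were 7.8% and 6.66%, and the list's median log2 difference was 0.27. Beside Fcgr4 and Marco, Cd300ld, an activating receptor, read 8.17 and 9.81 in GM-BMDC, 10.53 and 10.96 in GM-BMM and 11.08 and 11.12 in M-BMM, 3.82-fold higher (log2 difference 1.93, SE 0.39, limma adjusted p = 0.0157). Without GM-BMDC replicate 1 or 2 its difference was 1.11 or 2.76, and without M-BMM replicate 1 or 2 its call was lost (adjusted p = 0.0703 and 0.0675). Clec7a, the beta-glucan receptor dectin-1, ran the other way and read 10.96 and 11.19, 10.92 and 10.35, and 7.36 and 7.03. Its 4.46-fold lower macrophage average came mainly from M-BMM, with GM-BMM above M-BMM by 3.44 log2. Cd209a, a lectin that marks monocyte-related dendritic cells, read 9.04 and 11.69, 6.42 and 5.44, and 5.23 and 5.42, 26.7-fold lower (log2 difference -4.74, SE 0.65, limma adjusted p = 0.00291). The 2 GM-BMDC arrays of Cd209a differed by more than 2 log2 units, and without replicate 1 or 2 the difference was -6.06 or -3.42. The count of receptors reported higher was 7 without GM-BMDC replicate 1, 17 without GM-BMDC replicate 2 and 7 without either M-BMM replicate.

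Toll-like receptors and their adaptors were reported higher for 9 of 23 (39.1%) and lower for 2 (8.7%), against 7.8% and 6.66% of all genes. The lower share was thus near that of all genes, and the list's median log2 difference was 0.50. The 2 lower members, named after their values were seen, were Traf6 and Ly86. Traf6 lost its call without GM-BMDC replicate 1 (adjusted p = 0.143), GM-BMM replicate 2 (0.0565), M-BMM replicate 1 (0.0818) or M-BMM replicate 2 (0.0948), and Ly86 without GM-BMDC replicate 2 (0.0732) or M-BMM replicate 1 (0.0582). None of the reported members differed between GM-BMM and M-BMM in limma after adjustment. Tlr1, a partner of TLR2 for bacterial lipopeptides, read 7.41 and 7.78 in GM-BMDC, 9.13 and 10.67 in GM-BMM and 11.50 and 11.41 in M-BMM, 8.49-fold higher (log2 difference 3.09, SE 0.37, limma adjusted p = 0.00167). Irak3, which restrains signalling from these receptors, read 9.11 and 9.43, 11.59 and 11.86, and 11.45 and 11.43, 4.97-fold higher. Tlr3, the sensor of double-stranded RNA, was 3.68-fold and Tlr6 3.02-fold higher. The lipopolysaccharide receptor Tlr4 differed by 0.31 and the adaptor Myd88 by -0.01, and neither was reported.

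Complement genes were reported higher for 6 of 16 (37.5%) and lower for 1, Itgax (6.25%). Over all genes the shares were 7.8% and 6.66%, so the lower share was near that of all genes. Cd55, which shields cells from complement, read 4.21 and 4.47 in GM-BMDC, 5.69 and 5.03 in GM-BMM and 9.69 and 9.61 in M-BMM, so its 8.96-fold higher average was carried by M-BMM and set against a low dendritic level. Cfb, a factor of the alternative pathway, read 7.13 and 6.95, 10.45 and 11.72, and 8.69 and 8.54, 7.01-fold higher and higher in GM-BMM than in M-BMM by 2.47 log2. C5ar1, the receptor for the fragment C5a, was 2.74-fold higher (log2 difference 1.45, limma adjusted p = 0.0219). Without GM-BMDC replicate 1 or 2 that difference was 0.80 or 2.11, and the call was lost without M-BMM replicate 1 or 2 (adjusted p = 0.0905 and 0.081). The 3 genes of the C1q chains, C1qa, C1qb and C1qc, differed by 0.34, -0.01 and 0.67 and were not reported.

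Iron and heme genes were reported higher for 6 of 17 (35.3%, against 7.8% of all genes) and lower for 0, with a median of 0.26. By unadjusted limma p under 0.05, 8 were higher and 1 lower. After Cp, Slc11a2, a divalent metal transporter, read 8.12 and 7.87 in GM-BMDC, 9.12 and 9.69 in GM-BMM and 9.97 and 9.97 in M-BMM, 3.23-fold higher (log2 difference 1.69, SE 0.17, limma adjusted p = 0.000762). Hebp1, a heme-binding protein, was 2.47-fold higher. Hmox1, the heme-degrading enzyme, read 10.29 and 10.42, 11.97 and 11.99, and 11.32 and 11.13, 2.37-fold higher and slightly higher in GM-BMM than in M-BMM (0.75 log2). Blvrb, a biliverdin reductase, was 1.72-fold higher, a call lost without GM-BMDC replicate 1 (adjusted p = 0.0883) and without M-BMM replicate 1 or 2 (0.0573 and 0.0502).

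**Figure D3:**
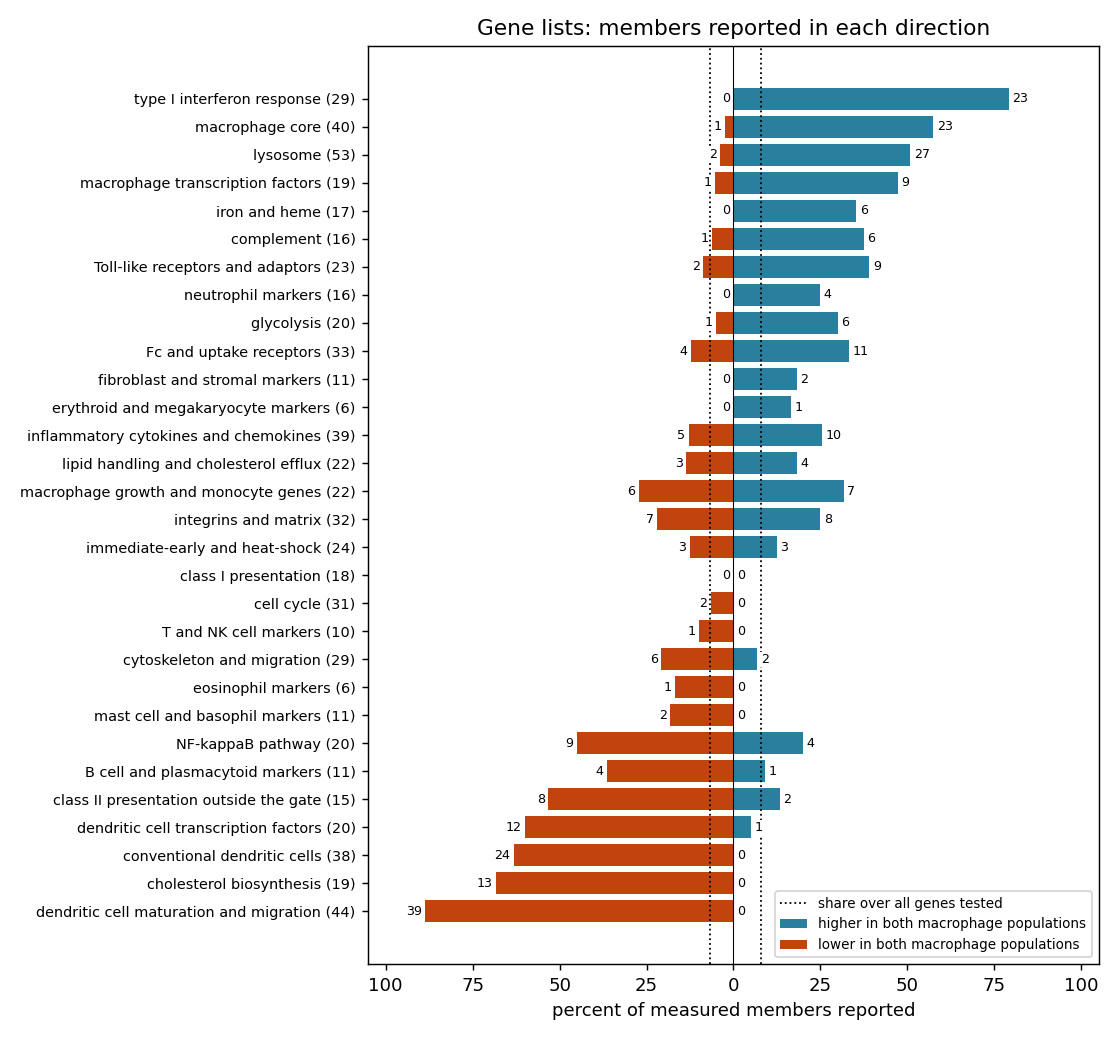
Percent of each list's measured members reported higher (teal, right) and lower (red-brown, left) in macrophages, with the number reported beside each bar and the number measured in brackets. Dotted lines give the shares over all genes tested, 7.8% and 6.66%. The type I interferon bar (23 of 29) and the dendritic cell maturation bar (39 of 44) are the longest to each side.

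On the dendritic side the largest difference was that of Ccl22, a chemokine that attracts regulatory T cells. It read 12.37 and 12.12 in GM-BMDC, 7.56 and 6.41 in GM-BMM and 5.45 and 4.94 in M-BMM, 71.3-fold lower in the macrophage average (log2 difference -6.16, SE 0.30, limma adjusted p = 5.38e-05). Nr4a3, an orphan nuclear receptor of migrating dendritic cells, read 11.57 and 10.85, 5.70 and 5.73, and 4.87 and 4.97, 59.4-fold lower (log2 difference -5.89, SE 0.19, limma adjusted p = 1.49e-05), with a low M-BMM mean. Ccl17, which shares a receptor with Ccl22, read 13.29 and 13.04, 10.74 and 6.74, and 5.99 and 5.94, 56-fold lower (log2 difference -5.81, SE 0.91, limma adjusted p = 0.00516). GM-BMM replicate 1 of Ccl17 stood nearest to the dendritic arrays, and without GM-BMM replicate 1 or 2 the difference was -6.81 or -4.81. Ccr7, which directs migration of dendritic cells into lymph nodes, read 11.94 and 11.82, 7.41 and 7.39, and 5.94 and 6.53, 33.5-fold lower (log2 difference -5.07, SE 0.16, limma adjusted p = 1.49e-05). Socs2, a feedback inhibitor of cytokine signalling, read 11.98 and 11.52, 9.33 and 6.91, and 4.85 and 5.13, 36.6-fold lower (log2 difference -5.19), again with a low M-BMM mean. Without GM-BMM replicate 1 or 2 the Socs2 difference was -5.80 or -4.59.

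Several genes fell to nearly the same level in both macrophage populations. Apol7c, an apolipoprotein L relative, read 11.12 and 10.36 in GM-BMDC, 5.29 and 5.15 in GM-BMM and 5.11 and 4.59 in M-BMM, 52.1-fold lower in macrophages (log2 difference -5.70, SE 0.23, limma adjusted p = 2.08e-05), with a low M-BMM mean. Cldn1, a tight junction protein, read 10.88 and 10.52, 5.93 and 4.86, and 5.12 and 5.48, 40.7-fold lower. Sema6d, a semaphorin, read 11.16 and 10.95, 6.20 and 5.75, and 6.16 and 5.74, 34.2-fold lower, and its GM-BMM minus M-BMM difference was 0.02 (95% interval -0.45 to 0.49). Fscn1, the actin-bundling protein fascin of dendritic processes, read 12.003 and 11.41, 6.50 and 6.93, and 6.93 and 6.76, 30.5-fold lower (log2 difference -4.93, SE 0.19, limma adjusted p = 1.97e-05). P2ry10, a receptor for lysophospholipids, was 30.5-fold lower and low in both macrophage populations (3.21 to 3.90). Mmp25, a membrane-anchored protease, was 29.3-fold lower, Strip2 24.6-fold (low in both macrophage populations), Dpp4 (the dipeptidase CD26) 16.9-fold and the kinase Stk39 15.4-fold. Cytip, which regulates adhesion of maturing dendritic cells, was 27.8-fold lower with a spread between GM-BMM arrays (8.40 and 6.40).

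The list of dendritic cell maturation and migration had 39 of 44 measured members reported lower in macrophages and 0 higher. Over all genes tested 6.66% were reported lower. By unadjusted limma p under 0.05, 40 were lower and 0 higher, and the median log2 difference was -1.64. Against GM-BMDC the list's median was -1.48 in GM-BMM and -1.76 in M-BMM. The members beyond those above included the costimulatory ligands, named after their values were seen. Cd86 read 10.96 and 10.53 in GM-BMDC, 8.31 and 7.85 in GM-BMM and 8.19 and 8.18 in M-BMM, 6.13-fold lower (log2 difference -2.62, SE 0.17, limma adjusted p = 0.000134). Cd80 read 11.86 and 11.12, 9.96 and 9.30, and 9.67 and 9.58, 3.63-fold lower, and Cd40 was 4.07-fold lower. The 5 members not reported were Tnfrsf11a, Marcksl1, Cd274, Birc3 and Epsti1. Cd274, which encodes the inhibitory ligand PD-L1, read 11.53 and 10.97, 11.71 and 11.61, and 10.76 and 10.78, while Pdcd1lg2, which encodes its relative PD-L2, read 11.06 and 10.39, 8.38 and 6.85, and 5.53 and 5.48 and was 18-fold lower. The count was 32 without GM-BMDC replicate 1 and 36 without replicate 2. Like every list here, the maturation list was written with earlier results of these data known, so its direction is no independent evidence.

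NF-kappaB drives much of dendritic maturation through RelB, c-Rel and their dimers. Of 20 measured genes of that pathway, 9 were reported lower and 4 higher, with a median log2 difference of -0.29. Map3k14, the kinase NIK of the non-canonical pathway, read 10.00 and 9.13 in GM-BMDC, 7.05 and 7.11 in GM-BMM and 7.28 and 7.24 in M-BMM, 5.25-fold lower (log2 difference -2.39, SE 0.22, limma adjusted p = 0.000533). Rel, which encodes c-Rel, read 12.60 and 11.96, 10.71 and 10.81, and 10.41 and 10.40, 3.24-fold lower (log2 difference -1.69, SE 0.17, limma adjusted p = 0.000831). Traf1, an adaptor of TNF receptors, was 5.29-fold lower, and differed between GM-BMM and M-BMM by 2.46. Members of the pathway higher in macrophages included Ikbke, a kinase upstream of IRF3, 3.86-fold higher, and Nfkbiz, a nuclear coactivator, 3.2-fold higher, the latter losing its call without GM-BMDC replicate 2 (adjusted p = 0.0565). Without GM-BMDC replicate 1, 5 genes of the pathway were reported lower, and without GM-BMDC replicate 2, 2 were higher.

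The NF-kappaB site, GGG followed after any 2 bases by TTTCC, on either strand, lay in the promoter windows of 4 of the 29 reported maturation genes with a promoter (13.8%), of 0 of the 5 others and of 1.83% of all tested genes. Stretches are given from Tnfrsf9 (chr4:150927911-150927998, plus strand), which encodes the costimulatory receptor 4-1BB, and Rel (chr11:23771006-23771105, minus strand). Both were chosen by size of difference among reported members with the site wholly before the start. The site is in capitals, in Rel as its reverse complement, and starts 43 and 91 bases before the start.
Tnfrsf9: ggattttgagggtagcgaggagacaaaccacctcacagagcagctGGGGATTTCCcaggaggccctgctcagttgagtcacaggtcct
Rel: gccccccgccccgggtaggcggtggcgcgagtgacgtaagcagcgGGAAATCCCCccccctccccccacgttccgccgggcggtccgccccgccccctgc
Tnfrsf9 read 12.13 and 11.20 in GM-BMDC, 10.76 and 7.31 in GM-BMM and 6.70 and 6.65 in M-BMM, 14-fold lower (log2 difference -3.81, SE 0.81, limma adjusted p = 0.0186), with GM-BMM replicate 1 again nearest to the dendritic arrays. Without GM-BMM replicate 1 or 2 its difference was -4.67 or -2.95, and its call was lost without GM-BMDC replicate 1 (adjusted p = 0.141), GM-BMDC replicate 2 (0.0505), M-BMM replicate 1 (0.08) or M-BMM replicate 2 (0.0755).

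Conventional dendritic cell genes were reported lower for 24 of 38 members (63.2%, against 6.66% of all genes) and higher for 0. The list's median log2 difference was -1.80. By unadjusted limma p under 0.05, 31 were lower and 1 higher. Flt3, the growth factor receptor of dendritic cell precursors, read 7.32 and 6.80 in GM-BMDC, 4.93 and 5.24 in GM-BMM and 5.36 and 5.44 in M-BMM, 3.53-fold lower, and Zbtb46, the factor that marks the lineage, was 2.01-fold lower. Both were named after their values were seen. Mgl2, a lectin of the CD301 family, read 11.41 and 11.80, 9.47 and 5.87, and 5.91 and 6.27, 26.4-fold lower (log2 difference -4.72, SE 0.83, limma adjusted p = 0.00848). Without GM-BMM replicate 1 or 2 the Mgl2 difference was -5.62 or -3.82, and its call was lost without GM-BMDC replicate 1 (adjusted p = 0.0518). The type 1 dendritic markers Xcr1 and Clec9a were not reported, and Xcr1 read 5.22 to 5.58 in all 6 arrays.

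Transcription factors of dendritic cells were reported lower for 12 of 20 and higher for 1, Batf, with a median of -0.77. Irf4, which drives class II and migration in type 2 dendritic cells, read 10.39 and 9.97 in GM-BMDC, 8.34 and 7.19 in GM-BMM and 5.36 and 5.45 in M-BMM, 12.1-fold lower (log2 difference -3.59, SE 0.29, limma adjusted p = 0.000327) and higher in GM-BMM than in M-BMM by 2.36. Stat4, which transmits interleukin 12 signals, read 11.27 and 10.66, 8.003 and 7.40, and 8.53 and 8.48, 7.28-fold lower. Runx3 was 4.67-fold lower and also higher in GM-BMM than in M-BMM (1.58 log2). Spib, a relative of PU.1, was 4.62-fold lower, and Etv3, a repressor, 4.3-fold lower. GM-BMM lay between GM-BMDC and M-BMM for Irf4 and Runx3, and below M-BMM for Stat4 and Spib, though the last 2 did not pass between the macrophage populations.

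Class II presentation outside the sorted chains fell in 8 of 15 measured genes (53.3%) and rose in 2 (13.3%). The shares of all genes were 6.66% and 7.8%, and the list's median was -1.33. Ciita, the coactivator that switches class II genes on, read 10.17 and 10.17 in GM-BMDC, 6.09 and 6.74 in GM-BMM and 5.84 and 5.84 in M-BMM, 16.5-fold lower (log2 difference -4.04, SE 0.17, limma adjusted p = 2.83e-05). Its GM-BMM minus M-BMM difference of 0.58 did not pass (adjusted p = 0.162). Cd74, the invariant chain, read 13.04 and 13.04, 11.22 and 11.66, and 7.57 and 7.73, 11.3-fold lower, and was higher in GM-BMM by 3.79. H2-Eb2 read 10.35 and 9.85, 5.70 and 6.07, and 5.42 and 5.39, 22-fold lower. H2-Ob, a chain of the peptide-loading modulator H2-O, was 6.1-fold lower. Cd83, which stabilises class II at the surface, read 11.56 and 10.93, 7.57 and 7.14, and 8.84 and 9.03, 8.59-fold lower, and was the reverse case, lower in GM-BMM than in M-BMM by 1.58 log2 (limma adjusted p = 0.00828). The 2 genes that rose were Marchf1, the ligase that removes class II from the surface (log2 difference 1.07), and Lgmn, a lysosomal protease (0.81), both named after their values were seen. Marchf1 lost its call without M-BMM replicate 1 or 2 (adjusted p = 0.0877 and 0.0718). GM-BMDC were sorted as class II high and GM-BMM as class II low, so these genes are not independent of the gate. M-BMM were sorted without class II, but stand against the same GM-BMDC arrays. Class I presentation genes were reported in 0 of 18, with a median of -0.05. By limma 3 of them passed the adjusted p as lower, but with overlapping arrays, and at an unadjusted p under 0.05, 1 was higher and 4 lower. Without GM-BMDC replicate 2, or without GM-BMM replicate 2, 2 class I genes were reported lower.

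**Figure D4:**
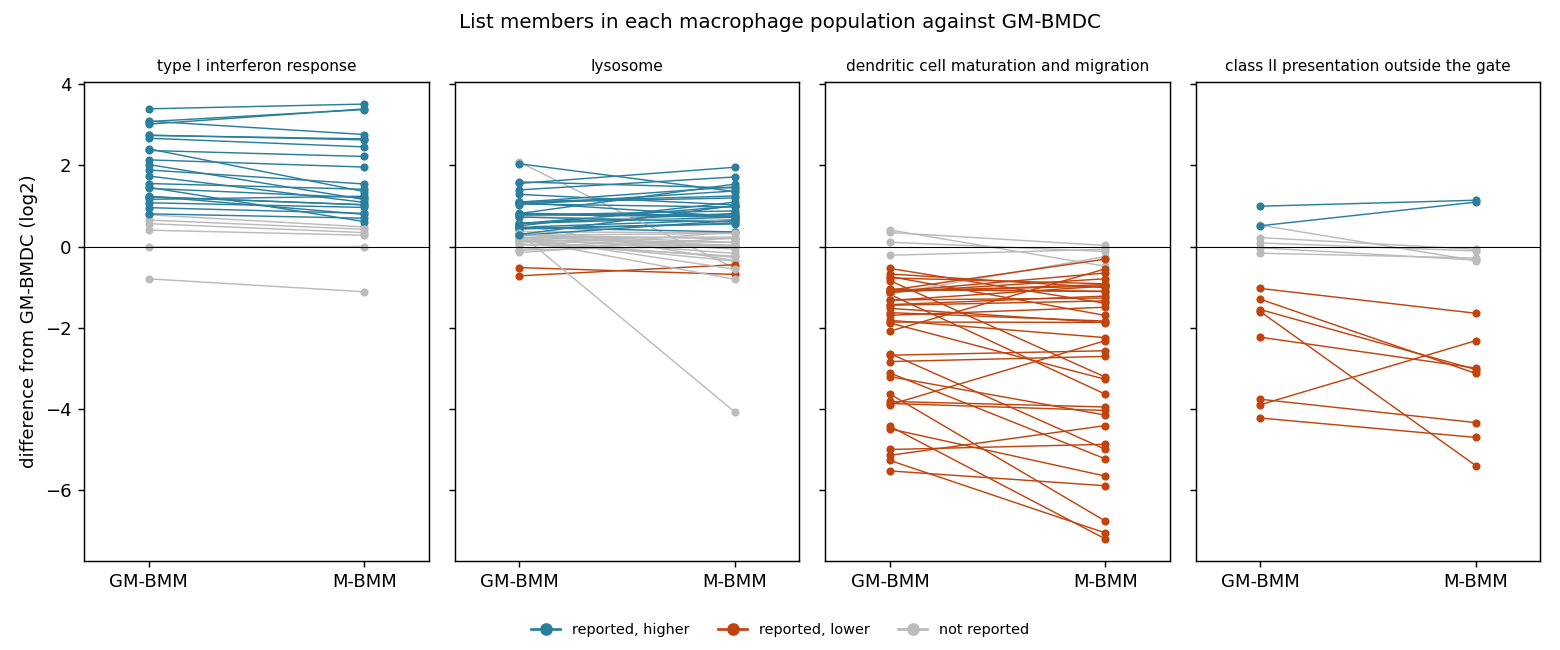
Log2 difference from GM-BMDC (vertical axis) of each measured member of 4 lists in GM-BMM and in M-BMM, joined by a line. Teal members were reported higher, red-brown lower and grey neither. Interferon and most lysosomal members keep a similar height in both macrophage populations (1 lysosomal member that was not reported lies far lower in M-BMM), while several maturation and class II members lie lower in M-BMM.

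Markers of B cells moved beside the dendritic genes. Of 11 measured markers of B and plasmacytoid cells, Cd79a, Ms4a1, Ebf1 and Pax5 were reported lower in macrophages, and Bst2, which interferon also induces, higher. These shares were 36.4% lower and 9.09% higher, against 6.66% and 7.8% of all genes. Cd79a, a chain of the B cell receptor, read 7.15 and 6.23 in GM-BMDC, 3.99 and 4.49 in GM-BMM and 4.73 and 4.49 in M-BMM, 4.8-fold lower against low macrophage means. The mean of the 11 markers was 7.04 in GM-BMDC replicate 1, 6.48 in replicate 2 and 6.15 to 6.55 in the macrophage arrays. B cells also express class II genes, Ciita and Ccr7, and their part in those results was not tested. Ebf1 and Pax5 lost their calls without GM-BMDC replicate 1 (adjusted p = 0.131 and 0.244) and without M-BMM replicate 1 (0.0853 and 0.131), Pax5 also without GM-BMM replicate 1 (0.0898), GM-BMM replicate 2 (0.0621) or M-BMM replicate 2 (0.131). Bst2 lost its call without GM-BMDC replicate 2 (0.0574) and M-BMM replicate 1 (0.0508). Without GM-BMDC replicate 1, 2 of the 11 markers were reported lower. GM-BMDC replicate 2 still read 6.23 for Cd79a, above every macrophage array, so this setting does not test the part of B cells. Without M-BMM replicate 1 the marker count was also 2.

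Markers of other cells are set beside the shares over all genes, 7.8% higher and 6.66% lower. Among 16 neutrophil markers 4 (25.0%) were reported higher, namely Mmp9, Csf3r, Lcn2 and Ctsg, of which Ctsg was low in GM-BMDC and M-BMM. The neutrophil list's mean was 6.42 and 6.50 in GM-BMDC and 6.87 to 7.55 in the macrophage arrays, its defining member Ly6g read 4.49 to 6.18 over the 6 arrays, and the part of such cells was not tested. In the other lists each share rests on 1 or 2 genes. In mast cell and basophil markers 2 of 11 were lower (18.2%, Kit and Gata2). In eosinophil markers 1 of 6 was lower (16.7%, Siglecf), and in T and NK cell markers 1 of 10 (10.0%, Cd8a). Pf4 was higher among 6 erythroid and megakaryocyte markers (16.7%), and Pecam1 and Dcn among 11 fibroblast and stromal markers (18.2%). Pf4 and Dcn lost their calls without GM-BMDC replicate 1 (adjusted p = 0.0697 and 0.073). Gata2 and Siglecf lost theirs without either GM-BMDC or either M-BMM replicate (adjusted p = 0.0653 to 0.0908 and 0.0552 to 0.107), and Ctsg without any 1 of these or GM-BMM replicate 2 (0.0794 to 0.166). In sorted populations fewer cells of a kind and less RNA per cell cannot be told apart.

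Cytokines and chemokines divided by gene, with 10 of 39 reported higher (25.6%) and 5 lower (12.8%), against 7.8% and 6.66% of all genes. The list's median was 0.19. The macrophage populations also parted here. Their medians against GM-BMDC had opposite signs, 0.72 in GM-BMM and -0.36 in M-BMM. Il10, the regulatory cytokine, read 4.42 and 4.10 in GM-BMDC, 5.34 and 7.77 in GM-BMM and 8.58 and 8.68 in M-BMM, 10.1-fold higher against a low dendritic mean (log2 difference 3.34, SE 0.56, limma adjusted p = 0.00707). Without GM-BMM replicate 1 or 2 the Il10 difference was 3.95 or 2.73. Il12b, the shared chain of interleukins 12 and 23, read 9.09 and 8.73, 5.95 and 6.80, and 5.36 and 5.62, 7.88-fold lower (log2 difference -2.98, SE 0.24, limma adjusted p = 0.000298). Tnf, named after its values were seen, read 8.76 and 9.03, 10.49 and 11.16, and 10.70 and 10.77, 3.69-fold higher. The T cell attractants Ccl22 and Ccl17 were lower and the monocyte attractants Ccl7 and Ccl2 higher. Ccl2, named after its values were seen, was 3.47-fold higher. These genes do not stand for the list's other chemokines. Without GM-BMM replicate 1, 8 of the list were reported lower.

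Growth factor receptors and monocyte genes were reported higher for 7 of 22 (31.8%) and lower for 6 (27.3%), against 7.8% and 6.66% of all genes. Of these 13 members, 7 differed between GM-BMM and M-BMM. Csf3r, the G-CSF receptor, read 6.01 and 7.37 in GM-BMDC, 9.52 and 9.86 in GM-BMM and 10.61 and 10.50 in M-BMM, 10.8-fold higher (log2 difference 3.43, and 2.75 or 4.11 without GM-BMDC replicate 1 or 2). Ms4a7, a tetraspan membrane protein of macrophages, was 6.85-fold higher and Plac8 5.58-fold higher. Hp, the haptoglobin gene, read 6.51 and 7.71, 10.93 and 11.78, and 8.16 and 7.87, 5.97-fold higher (log2 difference 2.58), with most of the excess in GM-BMM. The Hp difference was 1.98 or 3.18 without GM-BMDC replicate 1 or 2. All 6 genes reported lower differed between the macrophage populations, among them Csf2rb and Csf2ra, the GM-CSF receptor chains, with differences of -1.38 and -0.70. In these 6 M-BMM was the lower macrophage population. When both macrophage populations had to pass against GM-BMDC, 0 members of the list were reported lower. With each array centred on its median, 3 were. The list's higher count was 4 without M-BMM replicate 1 and 4 without M-BMM replicate 2.

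Cholesterol biosynthesis genes were reported lower for 13 of 19 (68.4%, against 6.66% of all genes) and higher for 0. The list's median log2 difference was -0.71. By unadjusted limma p under 0.05, 17 were lower and 0 higher. Idi1, an isomerase of the isoprenoid pathway, read 10.13 and 9.65 in GM-BMDC, 7.92 and 7.19 in GM-BMM and 7.24 and 6.78 in M-BMM, 6.09-fold lower (log2 difference -2.61, SE 0.24, limma adjusted p = 0.00058). Cyp51, a sterol demethylase, was 3.06-fold lower, Sqle, the squalene epoxidase, 2.46-fold and Fdft1, the squalene synthase, 2.32-fold. Hmgcs1, the synthase that makes HMG-CoA, read 9.47 and 9.61, 8.76 and 8.33, and 8.43 and 8.11, 2.19-fold lower. The list also held Srebf2, the transcription factor of the pathway, with a difference of -0.89. The sterol response core TCACNCCAC, on either strand, was in the promoter window of 1 of 10 reported members (10.0%), Hmgcs1, in 0 of 6 others and in 1.4% of all tested genes. The Hmgcs1 stretch (chr13:119690169-119690267, plus strand) has it in capitals, starting 137 bases before the start.
Hmgcs1: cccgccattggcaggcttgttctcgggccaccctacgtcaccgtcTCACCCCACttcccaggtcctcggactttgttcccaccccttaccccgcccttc

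Of the lipid handling list, 4 of 22 genes were reported higher (18.2%) and 3 lower (13.6%), against 7.8% and 6.66% over all genes. Apoe, the apolipoprotein of cholesterol export, read 9.70 and 11.15 in GM-BMDC, 11.70 and 11.999 in GM-BMM and 12.95 and 12.99 in M-BMM, 3.96-fold higher (log2 difference 1.99, and 1.26 or 2.71 without GM-BMDC replicate 1 or 2). Abca1, the cholesterol exporter, was 2.15-fold higher. Scd1, a fatty acid desaturase, read 10.74 and 10.14, 8.83 and 9.16, and 5.57 and 5.66, 8.78-fold lower and higher in GM-BMM than in M-BMM by 3.38. Cd36, the fatty acid and oxidised lipoprotein receptor, was 2.69-fold lower. In glycolysis 6 of 20 genes were reported higher (30.0%) and 1 lower (5.0%), the phosphofructokinase isoforms among them in both senses. Pfkl was 2.21-fold and Pfkm 1.59-fold higher, and Pfkp 2.27-fold lower, while Hk3 and Hk2 were 2.36-fold and 2.15-fold higher. Pfkm lost its call without GM-BMDC replicate 1 (adjusted p = 0.118) and without M-BMM replicate 1 (0.0645), and the higher count of the list was 3 in each of these cases.

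Matrix and adhesion genes split as well, with 8 of 32 reported higher (25.0%) and 7 lower (21.9%), against 7.8% and 6.66% of all genes. Mmp9, a gelatinase, read 6.31 and 6.02 in GM-BMDC, 10.26 and 10.30 in GM-BMM and 9.34 and 9.22 in M-BMM, 12.3-fold higher (log2 difference 3.62, SE 0.11, limma adjusted p = 1.49e-05). Mmp2, another gelatinase, read 7.07 and 7.20, 11.44 and 11.72, and 8.55 and 8.58, 7.65-fold higher and higher in GM-BMM by 3.01. Cytoskeletal genes were reported lower for 6 of 29 (20.7%) and higher for 2 (6.9%, near the 7.8% of all genes). The lower ones were led after Fscn1 by Lsp1, an actin-binding protein, 4.47-fold lower, Myo1g 3.31-fold lower and the membrane linker Ezr 2.71-fold lower. Myo1e, a class I myosin, was 1.82-fold higher, and lost its call without GM-BMDC replicate 1 or M-BMM replicate 1 (adjusted p = 0.0588 and 0.0509). The cytoskeletal higher count was 0 and 1 in these cases. Cell cycle genes were reported lower for 2 of 31, Tyms and Mcm7, with log2 differences of -0.60 and -0.45, a share near the 6.66% of all genes. Tyms lost its call without GM-BMDC replicate 1 (adjusted p = 0.152), M-BMM replicate 1 (0.0533) or M-BMM replicate 2 (0.0787), and Mcm7 without GM-BMDC replicate 1 (0.0789), GM-BMDC replicate 2 (0.0752) or M-BMM replicate 2 (0.0629). The count was 5 without GM-BMM replicate 1 and 0 without M-BMM replicate 2.

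Immediate-early and heat-shock genes were reported in 3 of 24 in each direction (12.5%), against 7.8% higher and 6.66% lower over all genes. The list's median log2 difference was -0.03. The higher count was 0 without GM-BMDC replicate 1 and 1 without either M-BMM replicate. Nr4a2, the paralogue of Nr4a3, read 9.10 and 8.68 in GM-BMDC, 6.93 and 6.72 in GM-BMM and 6.72 and 6.73 in M-BMM, 4.34-fold lower (log2 difference -2.12, SE 0.14, limma adjusted p = 0.000141). Egr2, a zinc finger factor, read 10.26 and 10.29, 9.64 and 9.03, and 5.46 and 6.08, 6.6-fold lower with GM-BMM above M-BMM by 3.56. Fos was 3.18-fold and Ier3 1.89-fold higher, and both lost their calls without GM-BMDC replicate 1 (adjusted p = 0.141 and 0.151), without M-BMM replicate 1 (0.0617 and 0.0768) and without M-BMM replicate 2 (0.0758 and 0.0768). GM-BMM minus M-BMM was 0.10 for Nr4a2 (95% interval -0.27 to 0.48) and 0.79 for Nr4a3 (0.284 to 1.298, adjusted p = 0.0866), while Egr2 differed between them.

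A last group met the rule with unequal parts in the 2 macrophage populations. Cd5l, an apoptosis inhibitor secreted by macrophages, read 5.15 and 5.40 in GM-BMDC, 6.19 and 5.93 in GM-BMM and 11.42 and 11.37 in M-BMM. Its 11-fold higher average was carried by M-BMM, which exceeded GM-BMM by 5.34 log2 (limma adjusted p = 8.72e-06). Ptprm, a receptor phosphatase, had the same shape and was 7.38-fold higher. Ly6i, a member of the Ly6 family, had the reverse shape, reading 8.25 and 8.35, 12.59 and 12.64, and 8.55 and 8.43, 4.76-fold higher on average. On the lower side Klk1b11, a kallikrein, read 13.01 and 13.16, 12.34 and 9.86, and 5.91 and 5.70, 24.8-fold lower (log2 difference -4.63, and -5.25 or -4.01 without GM-BMM replicate 1 or 2). For Klk1b11 GM-BMM alone did not pass against GM-BMDC (limma adjusted p = 0.116). Mmp12, the macrophage elastase, read 12.89 and 12.81, 12.80 and 12.35, and 7.73 and 7.59. Fn1, the fibronectin gene, read 11.63 and 12.01, 11.58 and 11.26, and 6.87 and 6.44. Itgax, which encodes CD11c, read 11.87 and 11.80, 10.72 and 10.05, and 6.01 and 5.71. In Mmp12 and Fn1 the GM-BMM arrays lay just below the GM-BMDC arrays. The no-overlap rule was met by a narrow margin there, and nearly all of the average came from M-BMM. GM-BMM alone did not pass against GM-BMDC for Mmp12, Fn1 or Clec7a (limma adjusted p = 0.39, 0.3 and 0.274). For Ly6i, M-BMM alone did not pass (limma adjusted p = 0.331). Clec7a and Ly6i also met the rule narrowly, with gaps of -0.039 and 0.086 log2 between the nearest arrays. Treating the 4 macrophage arrays as 1 group, which puts the difference between the populations into the error, ended the calls of these genes and of Cd55, Slc13a3, Raver2, H2-Aa and H2-Ab1 (adjusted p = 0.144 to 0.428) and left 605 genes reported higher and 668 lower.

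**Figure D5:**
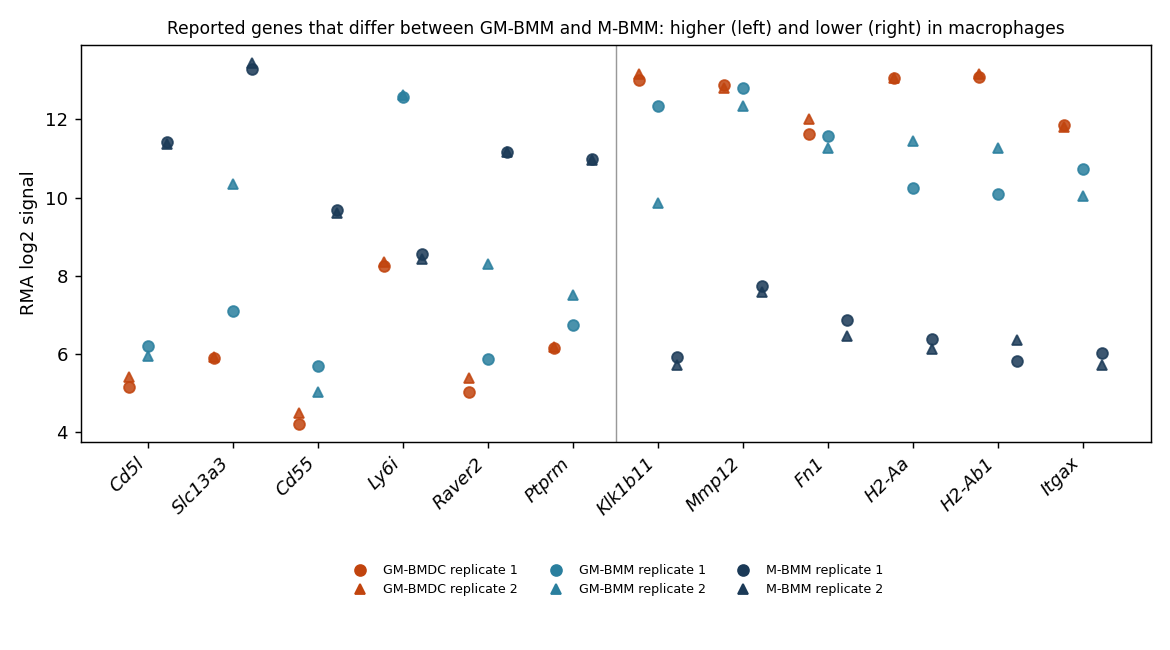
RMA log2 signal (vertical axis) of the 6 genes per direction with the largest difference between GM-BMM and M-BMM among reported genes that passed that comparison, 1 point per array, coloured by population. M-BMM (dark blue) stands far from GM-BMDC (red-brown) except for Ly6i, and in Mmp12 and Fn1 the GM-BMM points (teal) lie beside the GM-BMDC points.

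At the threshold, Tspan3 was the named gene just inside (adjusted p = 0.04994, log2 difference -1.03) and Prkab2 the one just outside (adjusted p = 0.05003, log2 difference -0.37). Both had arrays that did not overlap. Tspan3 lost its call without either GM-BMDC or either M-BMM replicate (adjusted p = 0.107 to 0.268). Beyond the reported genes, 298 passed the adjusted p with overlapping arrays, 169 higher and 129 lower, so that 8.65% of genes passed as higher and 7.31% as lower (16.0% in all) before the arrays had to be apart. The no-overlap rule alone held for 6382 genes (32.0% of those tested), 16.5% higher and 15.5% lower. When each macrophage population had to pass against GM-BMDC on its own, 671 genes were higher and 720 lower in both. Of the other reported genes, 591 higher and 429 lower passed in M-BMM alone, and 206 and 111 in GM-BMM alone. Over all genes 10.4% passed in GM-BMM and 16.7% in M-BMM.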

How the data were processed

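Total RNA from the 6 samples was measured on Affymetrix arrays. The authors deposited log2 values summarised by RMA in Affymetrix Expression Console 1.1, per the submitters' processing notes; a build was not given in the sources used here. Of 35556 probe sets, 21789 named 1 gene in the platform annotation, 1621 several and 12146 none. The single-gene probe set with the highest mean stood for each of 19938 genes, 999 of which had more than 1. Array medians were 6.18 to 6.28, and the number of arrays, 2 per group, limits the precision. Values were used as deposited.

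All 6 arrays entered 1 limma 3.58.1 fit (R 4.3.3; residual degrees of freedom 3, prior 4.338), with Benjamini-Hochberg adjustment over all genes. The contrasts were the mean of GM-BMM and M-BMM minus GM-BMDC, and GM-BMM minus M-BMM. The median standard error was 0.114 log2 for the first and 0.132 for the second. The script was tested on simulated data. Tables were made with pandas 2.3.3 and NumPy 2.4.6 in Python 3.11.15, and plots with matplotlib 3.10.9.

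Genes were named by rule, leaving out predicted or unnamed loci, immunoglobulin and T cell receptor segments, Xist and Y-linked genes. They were the 12 largest reported differences per direction, the 10 largest per direction with an interval within 2-fold between GM-BMM and M-BMM, the 6 per direction with the largest such difference among those that passed, up to 5 reported members of each of 31 lists with the largest differences, and the genes of the sort. Xist and Eif2s3y served as a check of the labels. The lists named 755 entries, of which 700 were measured. The members and the lists were chosen with earlier results of these data known. Alternatives covered the choice of probe set, filters, centring, moderation, thresholds, a replicate block, a Y-linked covariate and omission of each array.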

Additional observations from a re-analysis of the deposited data

Results flagged for a closer look

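Among the reported genes, 465 differed between GM-BMM and M-BMM by limma's test of that difference after adjustment, and 44 of them were among the 141 named reported genes. The values that follow are GM-BMM minus M-BMM in log2, from 2 arrays each.

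Genes higher in macrophages and higher still in M-BMM were Cd5l (-5.335), Slc13a3 (-4.65), Cd55 (-4.29), Raver2 (-4.09), Ptprm (-3.85), Spic (-2.80), Rapgef5 (-2.28), Pecam1 (-1.56), Cp (-1.46) and Fer (-1.32). Those higher in macrophages with the greater level in GM-BMM were Ly6i (4.12), Hp (3.34), Mmp2 (3.015), Cfb (2.47), Pf4 (1.875), Bhlhe41 (1.45), Lcn2 (1.23), Dcn (1.065), Ier3 (1.04), Adgb (1.02), Mmp9 (1.00) and Hmox1 (0.75).

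The named genes lower in macrophages that also passed between GM-BMM and M-BMM were lowest in M-BMM with 1 exception. They were Klk1b11 (5.29), Mmp12 (4.92), Fn1 (4.76), H2-Aa (4.61), H2-Ab1 (4.595), Itgax (4.53), Cd74 (3.79), Egr2 (3.56), Clec7a (3.44), Scd1 (3.38), Bhlhe40 (3.25), Socs2 (3.13), H2-Eb1 (2.97), Traf1 (2.46), Irf4 (2.36), Pdcd1lg2 (2.11), Lsp1 (1.97), Ccl22 (1.79), Runx3 (1.58), Ccr7 (1.16) and Pfkp (1.01). Cd83, at -1.58, was that exception and was lowest in GM-BMM. The sorting genes among these were used to choose the cells.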

How the results depend on the processing

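Counts are given in the order genes higher, genes lower, reported genes that differed between GM-BMM and M-BMM, and reported genes within 2-fold between them, and were 1556, 1328, 465 and 2125. Leaving out 1 array gave 768 to 1569, 849 to 1373, 126 to 623 and 936 to 2102. With the macrophage arrays as 1 group 605 were higher and 668 lower, since that fit puts the difference between the populations into the error, and 51 of 141 named reported genes lost their call. Adjusting over every probe set, a larger family, gave 926, 881, 237 and 1187. Without variance moderation all counts were 0, with 4601 genes at an unadjusted p under 0.05 on 3 residual degrees of freedom. Requiring both populations to pass gave 671, 720, 188 and 1033, and a difference of at least 2-fold gave 446, 537, 240 and 489. At an adjusted p of 0.01, 768 were higher, 748 lower and 931 within 2-fold. Allowing overlap gave 708 that differed, and a margin of 1.5-fold gave 1155 within it. Without both GM-CSF arrays numbered 1, 748 differed, and without both numbered 2, 987 did (the cause was not tested). H2-Ea, low throughout, changed sign to 0.005001 without both GM-CSF arrays numbered 1 (the cause was not tested). Centring each array on its median gave 1820 higher and 1149 lower, a larger share higher than the 54.0% without it, and quantile normalization gave 1626 and 1340.

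Over all genes same-numbered arrays did not deviate together (correlations 0.024, -0.132 and 0.0263), so the numbers were not used as pairs. Replicate 1 of both GM-CSF populations shared the Xist and Y-linked signals, and the labels do not give their origin. A replicate block gave 1401, 1253, 441 and 1959, and a Y-linked covariate 1252, 1134, 338 and 1723. The covariate was built from Y-linked genes and does not carry the Xist signal of GM-BMDC replicate 2. Over 2828 combinations of a named gene and an alternative, 2546 kept direction and call, 279 lost the call, 2 gained one and 1 reversed. Of 1488 list counts, 241 moved by over 1.5 times.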
